A study of Homo sapiens with 12 samples.

Results

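The genes described here are 9 targets of the transcription factor NRF2 that make up the antioxidant response: NQO1, HMOX1, GCLM, GCLC, TXNRD1, SRXN1, SLC7A11, ME1 and OSGIN1. They were chosen by name, as textbook NRF2 targets, from the 61541 gene identifiers measured. Earlier results of these data were known when the genes were chosen. All 9 were among the 12329 genes that passed the filter on low counts. Their messenger RNA was measured in IMR90, an established human line of fibroblasts from fetal lung, labelled as of WT genotype. All cells had been exposed for 24 h to doxorubicin, a DNA-damaging anthracycline, and then kept in culture for at least 8 days to become senescent. The 4 groups of 3 libraries each were cells on a soft 2 kPa hydrogel and cells on plastic culture plates, each with either 250 nM or 100 nM of the drug. There was no untreated library among the 12, and the labels do not say that replicates came from separate cultures, so that p-values measure only the spread between these samples, which may be technical. The dose went together with the library set, since molecular identifiers are mentioned in the names of all 250 nM files and of no 100 nM file. Dose and library preparation therefore cannot be told apart.

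NRF2 is a basic leucine zipper factor that the adaptor KEAP1, with the ubiquitin ligase subunit CUL3, marks for degradation in unstressed cells. Oxidants and electrophiles modify KEAP1, NRF2 accumulates, pairs with small MAF proteins and binds antioxidant response elements in the promoters of its targets. The targets supply glutathione and reduced thioredoxin, detoxify quinones and haem, and provide the NADPH on which these reactions draw. Anthracyclines such as doxorubicin carry a quinone group that cycles between oxidised and reduced forms and releases superoxide.

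The sequences below are shown because they are the sites next to the start of each gene that carry the core of the antioxidant response element, or the related AP-1 element, to which the same family of leucine zipper factors binds. RefSeq (GRCh38.p14) gave promoter windows of 250 bases before to 50 bases after the start for 7 of the 9 genes, with 2 starts for TXNRD1. The core of the element, TGACNNNGC on either strand, lay wholly before the start in GCLM, at both starts of TXNRD1 and in ME1, and is in capitals with 10 bases on each side.
GCLM, chr1:93909446-93909474, minus strand: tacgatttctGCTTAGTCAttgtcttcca
TXNRD1 first start, chr12:104215670-104215698, plus strand: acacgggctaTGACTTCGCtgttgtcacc
TXNRD1 second start, chr12:104286920-104286948, plus strand: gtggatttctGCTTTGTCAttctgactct
ME1, chr6:83431170-83431198, minus strand: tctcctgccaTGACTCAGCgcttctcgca

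The site of GCLM began 34 bases before the start, those of TXNRD1 99 and 102 bases before it, and that of ME1 137 bases before it. In GCLM and at the second start of TXNRD1 the core reads on the opposite strand, as TGACTAAGC and TGACAAAGC, and the second TXNRD1 site lies in a 5′ untranslated exon of other TXNRD1 transcripts in GENCODE 29. The window of the first TXNRD1 start holds another core, which spans the start, and that of ME1 another after the start, both on the opposite strand and not printed. Of all 35116 promoter windows 13.3% hold the core. The AP-1 element TGANTCA, which 7.71% of windows hold, was found in ME1, inside the printed core, and in OSGIN1, where it is in capitals.
OSGIN1, chr16:83953133-83953159, plus strand: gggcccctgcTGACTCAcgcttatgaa

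The windows of NQO1, GCLC and SRXN1 held none of these letters, and the ATF4 element TGATGNAA, found in 3.62% of windows, was in none of the 7 genes' windows. Bases outside the windows were not searched, so these genes may hold elements farther from the start.

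Libraries held 2229069 to 2730309 expected counts at 250 nM and 5887056 to 7351916 at 100 nM. The labelled cell type was borne out by its markers, with 10 of 10 fibroblast genes tested, led by FN1 at a mean of 6852 CPM (counts scaled to a library of fixed size). Leukocyte markers were near 0, with 0 of 8 tested and 3 at 0 in every library. Of the endothelial markers 1 of 6 was tested, of the epithelial markers 4 of 9 and of the pericyte and smooth muscle markers 4 of 6. Summed endothelial markers ran from 9.69 to 30.7 CPM on gel and from 31.5 to 38.5 CPM on plastic at 250 nM, and from 7.29 to 12.7 CPM on gel and from 16.4 to 31.2 CPM on plastic at 100 nM. Summed pericyte and smooth muscle markers, which fibroblasts also express, ran from 183 to 194 CPM on gel and from 202 to 277 CPM on plastic at 250 nM, and from 90.3 to 150 CPM on gel and from 144 to 197 CPM on plastic at 100 nM. Epithelial sums overlapped between substrates at both doses, and the part of such markers in the results below was not tested. Replicate 1 of gel at 250 nM stood apart, with a mean correlation across genes of 0.845 with its own group against 0.895 to 0.958 in the other 11 libraries, and with the smallest share of counts from ribosomal DNA loci, 13.2%. The other library low in that share was replicate 1 of plastic at 100 nM, at 14.4%.

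The members differed widely in level. On the TPM scale, which corrects for transcript length, TXNRD1 was the most abundant member at a mean of 76.5 TPM over the 12 libraries, followed by NQO1 at 40.9, SRXN1 at 20.3 and ME1 at 19.6 TPM. GCLM and GCLC, the subunits of one enzyme, averaged 9.98 and 8.71 TPM, SLC7A11 4.65, HMOX1 4.60 and OSGIN1 1.72 TPM. HMOX1 rested on 6 to 40 expected counts per library and OSGIN1 on 1 to 41, so that counting error weighs most on these genes.

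No member passed the test between gel and plastic, although most had a higher fitted level on gel and in CPM NQO1 and GCLM were higher in every gel library than in every plastic library of the same dose. On the TPM scale that separation held for both genes at 100 nM, and at 250 nM their substrates overlapped. In the edgeR quasi-likelihood test with Benjamini-Hochberg adjustment, 0 of the 9 members were called (adjusted p under 0.05) between gel and plastic at 250 nM, where 0.00811% of all tested genes were called, and 0 at 100 nM, where 0.227% were. Averaged over both doses, 0 members were called and 0.754% of all genes. The change of the gel effect between doses called 0 members and 0% of all genes. At an unadjusted p under 0.05 the members numbered 3 at 250 nM, 1 at 100 nM, 3 over both doses and 0 for the difference between doses. Of all 12329 tested genes, 1236, 1221, 1543 and 779 had such a p in these comparisons. DESeq2 called 0, 0, 2 and 0 members in the same 4 comparisons, limma-voom with sample weights 1, 0, 2 and 0, and limma-trend on log2(TPM + 1) 0 in each. Of the 12329 tested genes, DESeq2 called 93, 158, 385 and 0, limma-voom 161, 447, 801 and 0, and limma-trend 3, 7, 53 and 0. The fitted log2 fold change of gel over plastic was positive for 7 of 9 members in all 3 substrate comparisons. Its median over the members was 0.65 at 250 nM, 0.23 at 100 nM and 0.32 over both doses, while over all tested genes it was -0.02, -0.01 and -0.00. Without replicate 1 of gel at 250 nM the members' median was 0.36 at 250 nM and 0.25 over both doses, with 8 of 9 positive.

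**Figure D1:**
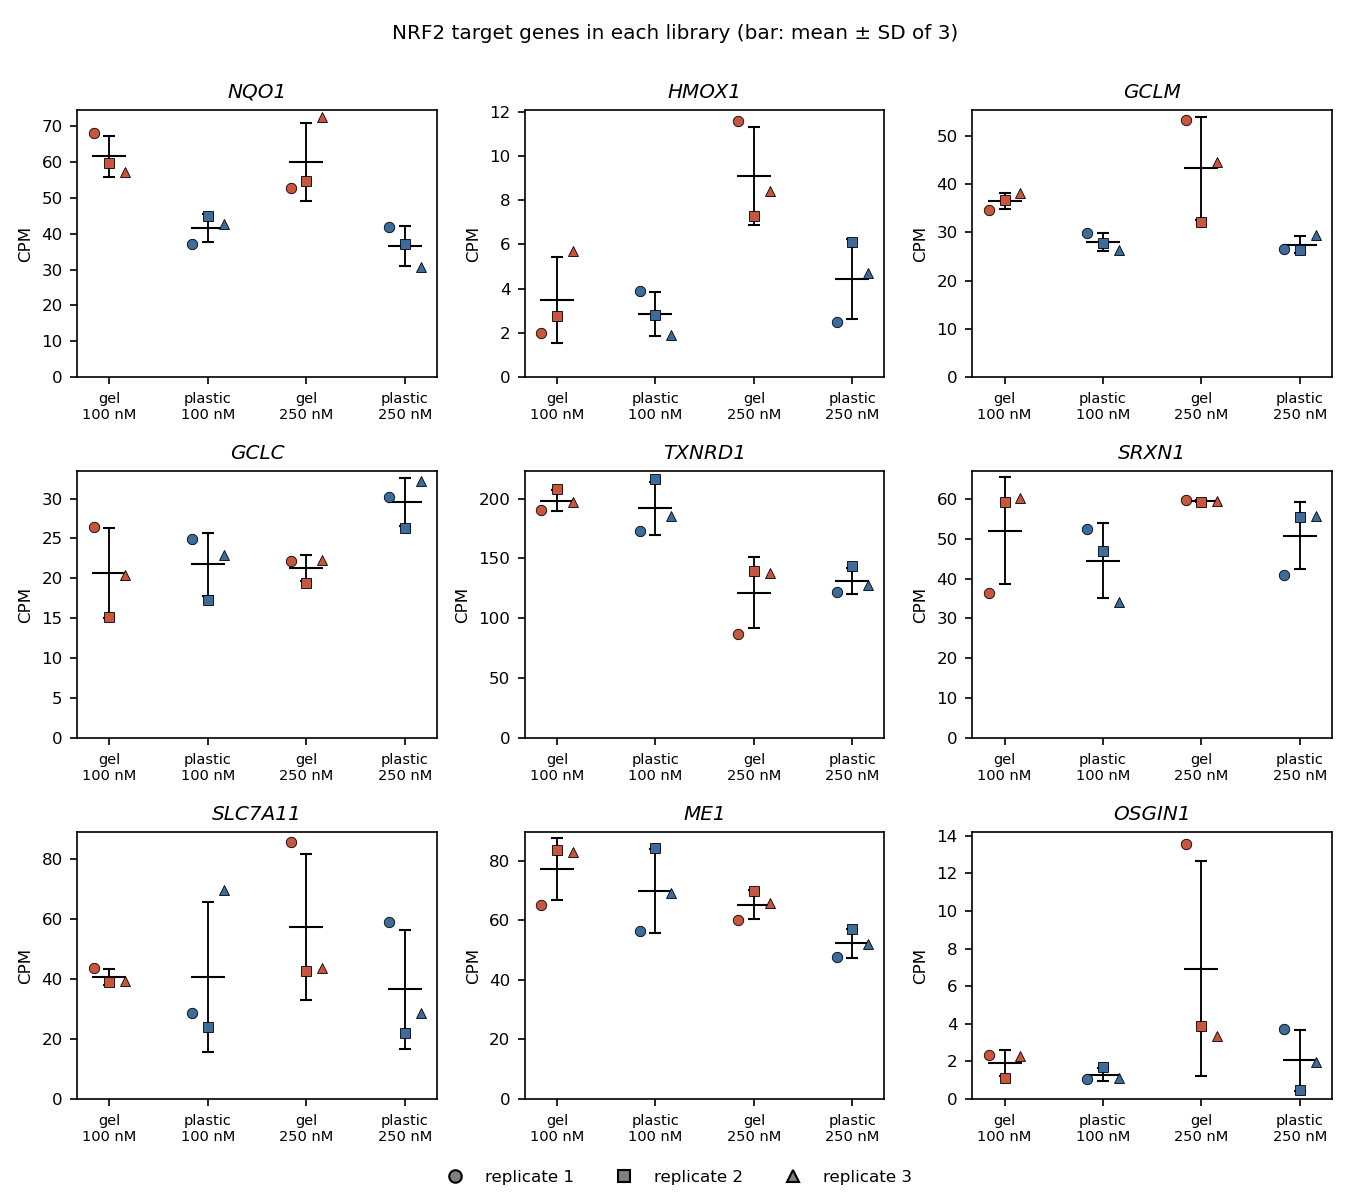
Level of each of the 9 genes in each library, in CPM on a linear axis from 0, with gel in red left of plastic in blue at each dose; the horizontal bar is the mean and the whiskers the SD of 3 libraries, and the symbol gives the replicate number. NQO1 and GCLM are higher in all 3 gel libraries than in all 3 plastic libraries at both doses, and TXNRD1 is lower at 250 nM than at 100 nM in all libraries.

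NQO1, the quinone reductase that passes electrons to quinones in pairs and so bypasses the reactive semiquinone, had the smallest p of the members between substrates. It measured 52.9, 54.9 and 72.5 CPM in the 3 gel libraries at 250 nM, against 41.8, 37.1 and 30.6 CPM on plastic. At 100 nM it measured 68.0, 59.7 and 57.2 CPM on gel, against 37.2, 44.9 and 42.7 CPM on plastic. In CPM every gel library was above every plastic library of its dose, and the group means on gel, 60.1 ± 10.8 CPM at 250 nM and 61.6 ± 5.69 CPM at 100 nM, lay above 36.5 ± 5.61 and 41.6 ± 3.96 CPM on plastic (SD, n = 3 each). The fold of gel over plastic was 1.65 at 250 nM (95% interval 1.22 to 2.22, edgeR adjusted p = 0.273) and 1.48 at 100 nM (1.11 to 1.97, adjusted p = 0.331). Over both doses it was 1.56 (1.27 to 1.92), a log2 change of 0.64 ± 0.14 (SE), which missed the threshold with an edgeR adjusted p of 0.051. That call turned with the processing: it was made in 9 of 24 alternative fits, with adjusted p between 0.00212 and 0.157, and the log2 change stayed between 0.55 and 0.69. Leaving out the library that stands apart, replicate 1 of gel at 250 nM, gave an edgeR adjusted p of 0.0226.

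NQO1 (ENSG00000181019) lies on the minus strand of chromosome 16 at 69706996 to 69726951 (GENCODE 29, GRCh38) and has 3254 exonic bases, of which 575 (17.7%) are shared with ENSG00000261602 on the opposite strand. The strand setting of the counting is not given in the sources used here, so reads of the pair could not be parted without it. ENSG00000261602 held 0 counts in every library.

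**Figure D2:**
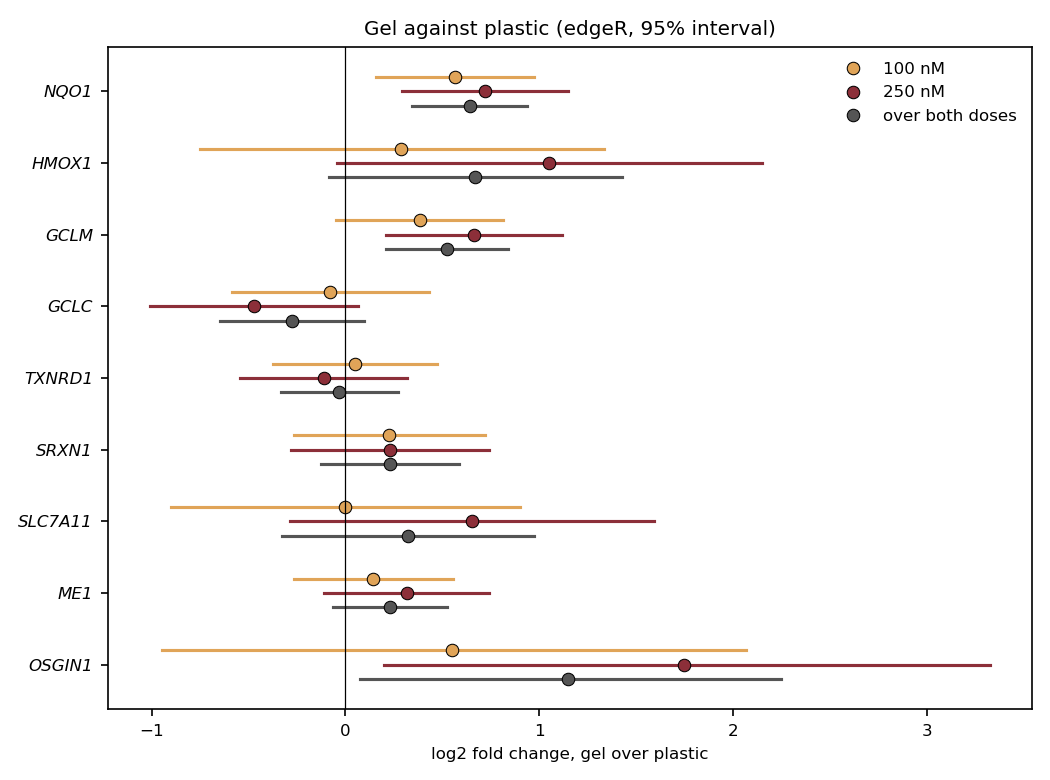
Fitted log2 fold change of gel over plastic for each gene (x axis, log2 scale) with its 95% interval, at 100 nM (orange), at 250 nM (dark red) and over both doses (grey); the vertical line marks no change. The intervals of NQO1 lie above 0 in all 3 comparisons, while those of OSGIN1, HMOX1 and SLC7A11 are the widest.

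HMOX1, haem oxygenase 1, which opens haem to biliverdin, carbon monoxide and iron, was low and highest on gel at 250 nM. Its gel libraries at 250 nM had 11.6, 7.28 and 8.43 CPM, against 2.48, 6.10 and 4.71 CPM on plastic. At 100 nM the gel libraries had 2.00, 2.75 and 5.70 CPM, against 3.87, 2.79 and 1.90 CPM on plastic. The substrates were apart at 250 nM and overlapped at 100 nM. The log2 change of gel over plastic was 1.05 ± 0.51 (SE) at 250 nM with an adjusted p of 0.517 and 0.29 ± 0.49 at 100 nM with an adjusted p of 0.894 (edgeR). The difference between the doses, 0.76 on the log2 scale (95% interval -0.75 to 2.28), did not pass either, with an adjusted p of 0.823. It was 0.46 with replicate 1 of plastic at 250 nM left out, 1.31 with replicate 3 of gel at 100 nM left out and 0.22 with limma-voom. HMOX1 (ENSG00000100292) lies on chromosome 22 at 35380361 to 35394214, plus strand.

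None of the glutathione genes was called between substrates. SLC7A11, the light chain of the cystine and glutamate exchanger that brings in cystine for glutathione, varied more between replicates than between groups. At 250 nM it had 85.6, 42.7 and 43.8 CPM on gel, against 59.2, 22.1 and 28.7 CPM on plastic. At 100 nM it had 43.7, 38.9 and 39.3 CPM on gel, against 28.6, 24.0 and 69.6 CPM on plastic. Replicate 1 was the highest of its group on both substrates at 250 nM, and replicate 3 stood far above the others on plastic at 100 nM. The log2 change was 0.65 ± 0.44 (SE) at 250 nM, which was 0.22 without replicate 1 of gel and 1.16 without replicate 1 of plastic, and its adjusted p was 0.658 (edgeR). At 100 nM it was -0.00 ± 0.42 (adjusted p = 0.999), and 0.63 without replicate 3 of plastic. Its exons share 865 bases with SLC7A11-AS1 on the opposite strand, which held 0 to 22 counts per library, against 47 to 440 for SLC7A11 (ENSG00000151012, chromosome 4 at 138164097 to 138242349, minus strand).

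GCLM, the modifier subunit of glutamate-cysteine ligase, the rate-limiting enzyme of glutathione synthesis, was the second member with all gel libraries above all plastic libraries at both doses in CPM. It had 53.2, 32.0 and 44.7 CPM on gel and 26.5, 26.3 and 29.5 CPM on plastic at 250 nM. It had 34.6, 36.7 and 38.1 CPM on gel and 29.9, 27.7 and 26.3 CPM on plastic at 100 nM. Of all tested genes, 1.25% lay above at both doses in CPM and 1.93% below, and of the 9 members NQO1 and GCLM did so. In TPM no member did, where 0.568% of all tested genes lay above at both doses and 2.18% below. At 250 nM the lowest gel library was below the highest plastic library in TPM. The values were 8.57 against 8.59 TPM for GCLM and 38.0 against 39.5 TPM for NQO1. The fold of gel over plastic was 1.58 at 250 nM (95% interval 1.16 to 2.17) and 1.30 at 100 nM (0.968 to 1.76), and over both doses 1.44 (1.16 to 1.79) with an edgeR adjusted p of 0.116. DESeq2 and limma-voom with sample weights gave adjusted p of 0.0368 and 0.0271 for that average, and the other 22 alternatives 0.0922 to 0.459. GCLM (ENSG00000023909) lies on chromosome 1 at 93885205 to 93909456, minus strand.

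GCLC, the catalytic subunit of the same ligase, had a negative fitted change where that of its partner was positive. It had 22.1, 19.4 and 22.3 CPM on gel at 250 nM, against 30.2, 26.3 and 32.2 CPM on plastic. At 100 nM it had 26.5, 15.1 and 20.4 CPM on gel, against 25.0, 17.3 and 23.0 CPM on plastic. It was the only member with all gel libraries below all plastic libraries at 250 nM in CPM, a pattern held by 7.6% of all tested genes, and its substrates overlapped at 100 nM. In TPM they overlapped at 250 nM too, at 5.56 to 6.97 TPM on gel and 6.77 to 11.4 TPM on plastic. The log2 change was -0.47 ± 0.25 (SE) at 250 nM with an adjusted p of 0.558 and -0.08 ± 0.24 at 100 nM with an adjusted p of 0.951 (edgeR). GCLC (ENSG00000001084) lies on chromosome 6 at 53497341 to 53616970, minus strand, and shares exonic bases with GCLC-AS1 (7 bases, opposite strand, 0 to 3 counts) and ENSG00000231683 (529 bases, same strand, 0 counts).

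The number of GCLM counts per GCLC count was 2.40, 1.65 and 2.00 in the gel libraries at 250 nM and 0.877, 1.0 and 0.915 in the plastic libraries. It was 1.31, 2.43 and 1.87 on gel and 1.20, 1.60 and 1.14 on plastic at 100 nM. The ratio was 1.65 or more in each gel library and 1.0 or less in each plastic library at 250 nM, and it overlapped between substrates at 100 nM. It mixes transcript lengths and is given as a description with no test, since it was chosen after both genes' values were seen.

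**Figure D3:**
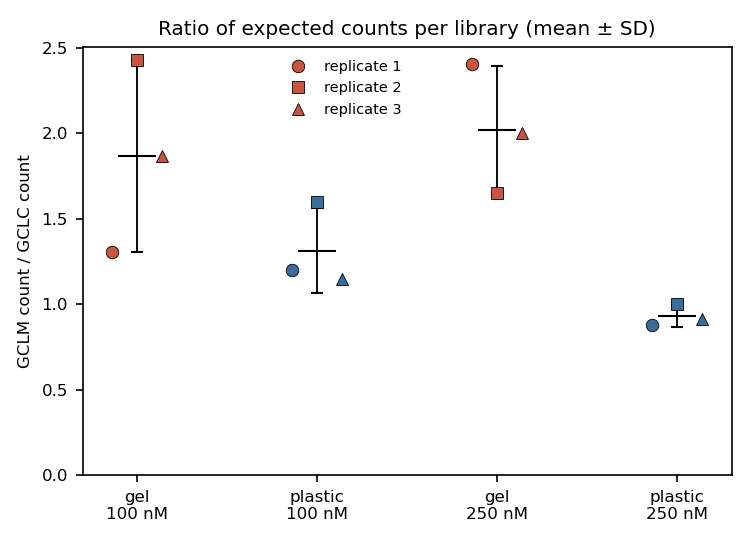
Expected counts of GCLM divided by those of GCLC in each library (y axis, linear from 0), with gel in red left of plastic in blue at each dose; bar and whiskers are mean ± SD of 3 libraries. At 250 nM the gel libraries lie between 1.65 and 2.40 and the plastic libraries between 0.877 and 1.0, and at 100 nM the substrates overlap.

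TXNRD1, the selenoprotein that reduces thioredoxin with NADPH, showed overlapping levels on the 2 substrates. Its libraries at 250 nM had 87.2, 139 and 138 CPM on gel and 122, 144 and 128 CPM on plastic. At 100 nM they had 190.1, 208 and 197 CPM on gel and 173, 217 and 186 CPM on plastic. The log2 change of gel over plastic over both doses was -0.03 (95% interval -0.33 to 0.27, edgeR adjusted p = 0.957), turning to 0.06 without replicate 1 of gel at 250 nM. TXNRD1 (ENSG00000198431) lies on chromosome 12 at 104215779 to 104350305, plus strand.

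SRXN1, sulfiredoxin, which repairs over-oxidised peroxiredoxins, was nearly constant on gel at 250 nM, at 59.8, 59.2 and 59.4 CPM, against 41.0, 55.4 and 55.8 CPM on plastic. At 100 nM it had 36.5, 59.1 and 60.3 CPM on gel, against 52.3, 46.9 and 34.0 CPM on plastic. The substrates were narrowly apart at 250 nM in CPM, but not in TPM, and overlapped at 100 nM. The log2 change was 0.23 ± 0.24 (SE) at 250 nM and 0.23 ± 0.23 at 100 nM (edgeR adjusted p = 0.794 and 0.802). SRXN1 (ENSG00000271303, chromosome 20 at 646615 to 653370, minus strand) shares 85.0% of its exonic bases with ENSG00000270299 on the same strand, which held 0 counts in every library, so the deposited table gave all counts of the shared bases to SRXN1.

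ME1, cytosolic malic enzyme, which makes NADPH from malate, had 60.1, 69.9 and 65.7 CPM on gel and 47.6, 57.3 and 52.2 CPM on plastic at 250 nM. It had 65.1, 83.6 and 83 CPM on gel and 56.3, 84.3 and 69.2 CPM on plastic at 100 nM. Gel stood above plastic in all libraries at 250 nM and overlapped with it at 100 nM. The log2 change was 0.32 ± 0.20 (SE) at 250 nM and 0.14 ± 0.19 at 100 nM (edgeR adjusted p = 0.63 and 0.856). ME1 (ENSG00000065833) lies on chromosome 6 at 83210389 to 83431071, minus strand.

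OSGIN1, an oxidative stress-induced growth inhibitor, was the scarcest member and had the largest fitted change of gel over plastic among the members at 250 nM and over both doses. At 250 nM it had 41, 8 and 8 expected counts on gel, 13.5, 3.88 and 3.37 CPM, and 9, 1 and 5 expected counts on plastic, 3.72, 0.469 and 1.96 CPM. At 100 nM it had 2.36, 1.10 and 2.28 CPM on gel, against 1.07, 1.70 and 1.11 CPM on plastic. Replicate 1 was the highest of its group on both substrates at 250 nM, and the groups overlapped at both doses. The log2 change at 250 nM was 1.75 ± 0.73 (SE, edgeR adjusted p = 0.42), and it was 0.78 without replicate 1 of gel and 2.45 without replicate 1 of plastic. The change at 100 nM, 0.55 ± 0.70 (SE, edgeR adjusted p = 0.851), was below the 0.57 of NQO1. OSGIN1 (ENSG00000140961) lies on chromosome 16 at 83948282 to 83966332, plus strand.

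Counted over the members in CPM, gel libraries lay wholly above plastic libraries for 5 of 9 at 250 nM (NQO1, HMOX1, GCLM, SRXN1 and ME1), where 7.4% of all tested genes did, and wholly below for 1 (GCLC). At 100 nM they lay above for NQO1 and GCLM, where 9.6% of all genes did, and below for none, where 9.4% of all genes did. In TPM they lay above for 2 members at 250 nM, HMOX1 and ME1, where 4.96% of all genes did, and below for none, where 9.05% did. At 100 nM in TPM they lay above for NQO1 and GCLM, where 6.55% of all genes did. The difference of the gel effect between doses was positive for 7 of 9 members with a median of 0.17 on the log2 scale, against -0.02 over all genes, and adjusted p for the members ran from 0.811 to 0.999 (edgeR). Replicate 1 of gel at 250 nM was the highest of its group for 5 of the 9 members and the lowest for 3.

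Between doses, TXNRD1 was lower at 250 nM, and HMOX1 and OSGIN1 had higher fitted levels on both substrates. TXNRD1 alone passed the test, on gel. In the edgeR test of 250 against 100 nM, 1 of 9 members was called on gel, where 13.8% of all tested genes were, and 0 on plastic, where 8.52% were. At an unadjusted p under 0.05 the members numbered 3 on gel and 1 on plastic, and all tested genes 3878 and 3189 of 12329. DESeq2 called 3 members on gel and 1 on plastic, and limma-voom with sample weights 2 on each. Of the 12329 tested genes, DESeq2 called 2404 on gel and 1667 on plastic, and limma-voom 2925 and 3173. The median log2 change of the members was 0.19 on gel and -0.03 on plastic, against -0.02 and -0.03 over all genes. These comparisons share the confounding of dose with library set, and within a library set no dose comparison can be made.

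On gel TXNRD1 averaged 121 ± 29.6 CPM at 250 nM and 198 ± 8.96 CPM at 100 nM, and on plastic 131 ± 11.2 CPM at 250 nM and 192 ± 22.4 CPM at 100 nM (SD, n = 3 each). All 250 nM libraries were below all 100 nM libraries on both substrates, as for 19.3% of all tested genes on gel and 19.4% on plastic. It fell by 0.71 ± 0.20 on the log2 scale on gel (SE, edgeR adjusted p = 0.0326), to a fold of 0.612 (95% interval 0.455 to 0.823). On plastic the log2 change was -0.55 ± 0.20 (adjusted p = 0.099). The call on gel stood in 18 of 25 alternatives. It was lost when any library of gel at 100 nM was left out (edgeR adjusted p = 0.0665, 0.0871 and 0.0713 for replicates 1, 2 and 3), when replicate 2 or 3 of plastic at 250 nM was (0.054 and 0.057), when replicate 1 of gel at 250 nM was (0.0507) and on the gel libraries alone (0.0976). The value without replicate 1 of gel at 250 nM, the lowest library at 87.2 CPM, was -0.54. With all libraries, the change on log2(TPM + 1) was -1.23.

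That larger value on the TPM scale goes with the effective length that RSEM gave TXNRD1, which ran from 1445 to 3625 bases between libraries, a 2.51-fold range. It was longest in replicate 1 of gel at 250 nM, where TXNRD1 had 23.6 TPM, and shortest in replicate 1 of gel at 100 nM, where it had 122 TPM. TXNRD1 has 24 annotated transcripts in GENCODE 29. GCLC, with 15, ranged 2.28-fold in effective length, while SRXN1 and ME1, with 1 transcript each, did not vary. For GCLC the dose comparison changed sign between the scales: 250 against 100 nM gave 0.44 on plastic and 0.05 on gel from counts, and -0.05 and -0.51 on log2(TPM + 1), none of them called.

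On gel, HMOX1 was 2.60-fold higher at 250 nM than at 100 nM (95% interval 1.27 to 5.38, edgeR adjusted p = 0.0723), with all 250 nM libraries above all 100 nM libraries. DESeq2 gave an adjusted p of 0.0395, limma-voom 0.0456, and the edgeR fit without replicate 3 of gel at 100 nM, the highest of its group, 0.0462 with a log2 change of 1.94. OSGIN1 was 3.68-fold higher on gel (1.36 to 10.2, edgeR adjusted p = 0.0769; DESeq2 0.0391), again with no overlap of the libraries, and its log2 change of 1.88 was 0.89 without replicate 1 of gel at 250 nM. On plastic the doses overlapped, with log2 changes of 0.62 for HMOX1 and 0.68 for OSGIN1 (edgeR adjusted p = 0.481 and 0.614). The difference of these dose changes between the substrates had edgeR adjusted p of 0.823 for HMOX1 and 0.811 for OSGIN1. Among all tested genes 16.5% lay wholly above on gel and 16.5% on plastic, where GCLC did among the members in CPM, at 29.6 ± 3.01 CPM at 250 nM and 21.8 ± 3.94 CPM at 100 nM. ME1 on plastic was at 52.4 ± 4.84 CPM at 250 nM and 69.9 ± 14 CPM at 100 nM, a log2 change of -0.42 (edgeR adjusted p = 0.194), called by limma-voom (0.0325) and without the 2 libraries low in ribosomal DNA (0.0428). NQO1, GCLM and SRXN1 had log2 changes between doses of -0.19 to 0.25, with edgeR adjusted p of 0.417 to 0.951. SLC7A11 had 0.50 ± 0.42 (SE) on gel and -0.15 ± 0.43 on plastic (adjusted p = 0.44 and 0.865).

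**Figure D4:**
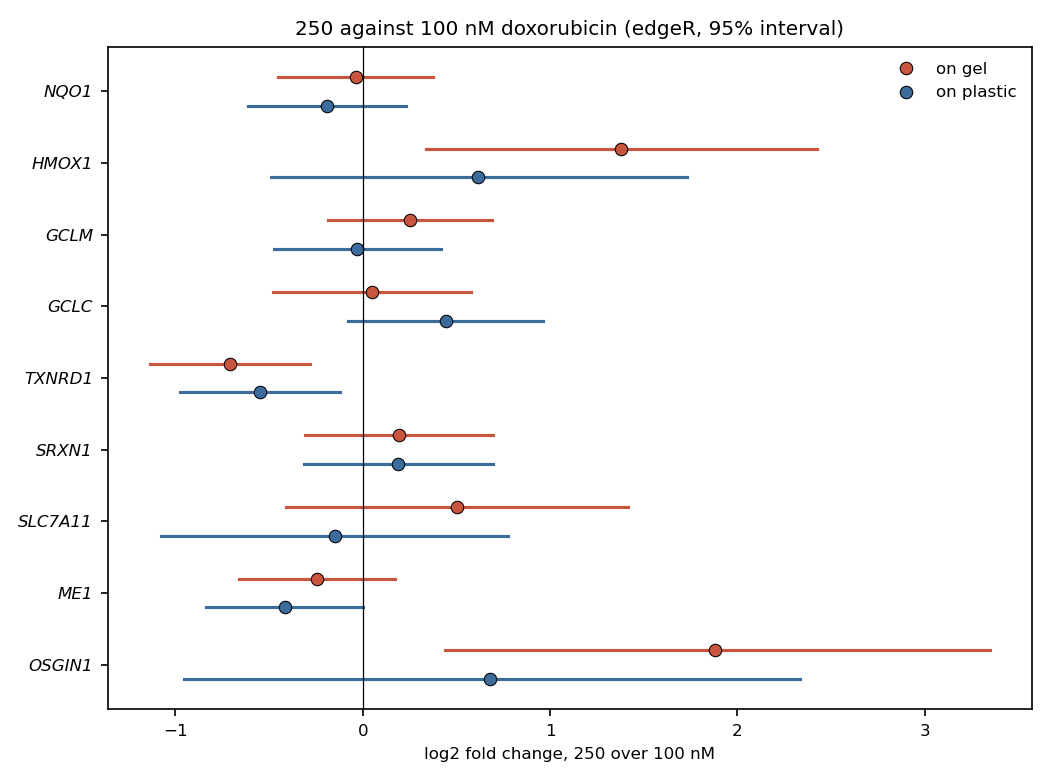
Fitted log2 fold change of 250 over 100 nM doxorubicin for each gene (x axis, log2 scale) with its 95% interval, on gel (red) and on plastic (blue); the vertical line marks no change, and dose is confounded with library set. The intervals of TXNRD1 lie below 0 on both substrates, and those of HMOX1 and OSGIN1 lie above 0 on gel.

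Ordered by group mean in TPM, NQO1 was highest on gel at 100 nM and at 250 nM, whose ranges overlapped, and the range of gel at 250 nM stood clear of that of plastic at 100 nM, the next group, but overlapped with that of plastic at 250 nM. GCLM was highest on gel at 250 nM and next on gel at 100 nM, which overlapped, and gel at 100 nM was apart from both plastic groups, while gel at 250 nM overlapped with both. HMOX1 and OSGIN1 were highest on gel at 250 nM, at 8.27 and 3.94 TPM. Its range was apart from the next group, plastic at 250 nM, for HMOX1, which averaged 4.22 TPM there, and overlapped with it for OSGIN1. TXNRD1 and ME1 were highest at 100 nM, where gel and plastic overlapped, and the 250 nM groups stood below them. For SRXN1, SLC7A11 and GCLC, neighbouring groups in the order overlapped throughout.

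The rest of the NRF2 pathway gave no call between substrates. Of 17 regulators, all tested, 0 were called between gel and plastic at either dose or over both doses (edgeR), with medians of 0.16, -0.04 and 0.05 on the log2 scale at 250 nM, at 100 nM and over both doses. NFE2L2, the gene of NRF2 itself, had a log2 change of -0.60 at 250 nM and -0.17 at 100 nM (adjusted p = 0.51 and 0.885). SQSTM1, the autophagy adaptor that binds KEAP1, had 0.57 and 0.38 (adjusted p = 0.518 and 0.7). Between doses 4 of the 17 regulators fell on gel, where 6.9% of all tested genes did, and 2 on plastic, where 4.48% did. On gel 6.91% of all tested genes rose and on plastic 4.04%, and the dose counts of the lists below stand beside these shares. CUL3 fell by 0.88 on gel and 0.82 on plastic (adjusted p = 0.0153 and 0.0259). NFE2L2 fell by 1.19 on gel (adjusted p = 0.0181), to 42.8 ± 15.8 CPM at 250 nM against 97.1 ± 26.5 CPM at 100 nM (SD, n = 3 each). PALB2, a DNA repair protein that also binds KEAP1, fell by 1.92 on plastic (adjusted p = 0.044), to a low level of 2.32 ± 1.29 CPM at 250 nM against 8.70 ± 0.846 CPM at 100 nM.

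Of 46 other NRF2 targets 33 were tested and 0 were called between substrates, with a median of 0.03 over both doses, against 0.32 in the 9 members. The ferritin genes FTH1 and FTL, which store the iron that haem breakdown frees, were the most abundant at means of 3157 and 2191 TPM, and over both doses differed by 0.03 and 0.07 (adjusted p = 0.949 and 0.899). Between doses 4 of the 33 rose and 2 fell on gel and 0 were called on plastic, against 13.8% of all tested genes called on gel and 8.52% on plastic. On gel FTL rose by 0.81, FTH1 by 0.54 and PTGR1, a reductase of reactive lipids, by 0.93 (adjusted p = 0.0178, 0.0473 and 0.0102), while ABCC1, an exporter of glutathione conjugates, fell by 2.72 (adjusted p = 0.00598). ABCC1 averaged 1.81 ± 1.73 CPM on gel at 250 nM and 11.8 ± 1.70 CPM at 100 nM (SD, n = 3 each). The level at 250 nM is near the 1.10 to 1.35 CPM that 0 counts allows there, so the size of the fall is uncertain.

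Among 24 tested genes of glutathione synthesis and use of 30, 0 were called between substrates, 3 rose by dose on gel, where 6.91% of all tested genes did, and 2 on plastic, where 4.04% did. GSS, which completes glutathione after the GCLC and GCLM step, rose by 1.05 on gel and 1.06 on plastic (edgeR adjusted p = 0.00991 and 0.0129), and GSTO1, an omega-class transferase, by 0.98 and 0.82 (0.0106 and 0.0285). GPX1, the cytosolic glutathione peroxidase, had a log2 change of gel over plastic of 0.51 over both doses (adjusted p = 0.241). In the thioredoxin and peroxiredoxin system, all 19 tested, PRDX4 of the endoplasmic reticulum was the 1 gene called, up by 1.21 by dose on gel (adjusted p = 0.0141). TXNIP, the thioredoxin inhibitor, and the selenoprotein gene SELENOW were its most abundant genes and had log2 changes of gel over plastic of -0.41 and 0.12 over both doses (adjusted p = 0.597 and 0.848). Superoxide and peroxide enzymes gave 0 calls among 7 tested of 11 in any of the 6 comparisons. SOD1 and SOD2 had log2 changes of -0.09 and 0.49 for gel over both doses (adjusted p = 0.837 and 0.715).

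Haem and iron genes, 15 tested of 16, gave 2 rises and 1 fall by dose on gel and 1 rise on plastic, beside the 13.8% and 8.52% of all tested genes called. UROD, an enzyme of haem synthesis, rose by 1.09 on gel and 0.85 on plastic (edgeR adjusted p = 0.00721 and 0.0232), and BLVRA, which reduces the biliverdin that HMOX1 makes, by 0.99 on gel (adjusted p = 0.012). NCOA4, the ferritin autophagy receptor, had a log2 change of 0.14 for gel over both doses (adjusted p = 0.825). Of 16 tested genes of NADPH production of 17, 2 rose by dose on gel, and 1 rose and 2 fell on plastic, beside the same shares. ACLY, ATP citrate lyase, rose by 0.87 on gel and 0.91 on plastic (adjusted p = 0.0204 and 0.0234), IDH2 rose by 0.86 on gel (0.0442), and ME2, the mitochondrial relative of ME1, fell by 1.56 on plastic (0.015). MTHFD2 had a log2 change of -0.35 for gel over both doses (adjusted p = 0.464). ATF4, which shares SLC7A11 with NRF2 as a target, rose by 1.35 by dose on gel and 1.20 on plastic (adjusted p = 0.0161 and 0.0327). Of its list of 10, all tested, DDIT3 also rose on gel by 1.56 (adjusted p = 0.0221), and PSAT1 had a log2 change of -0.14 for gel over both doses (adjusted p = 0.87). None of these haem, NADPH or ATF4 genes was called between substrates. In bulk RNA a smaller share of cells that express a gene and less of its RNA per cell cannot be told apart.

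Within a dose the members did not vary as 1 block. Over the 12 libraries, with each dose centred on its mean, 21 of 36 pairs of members had a positive Pearson correlation of log2 CPM. The median over the pairs was 0.12. With replicate 1 of gel at 250 nM left out of the correlation but kept in the centring, 23 pairs were positive. The median was then 0.18. Over all 12 libraries, HMOX1 and SRXN1 had the highest correlation, 0.79, and GCLC and ME1 the lowest, -0.88. NQO1 and GCLM had 0.71. The genes whose pattern was most like the mean of the 9 members were SC5D, MRPL52, HMGCS1, SQLE and SVIP, with Pearson correlations of 0.934, 0.930, 0.926, 0.921 and 0.915 over the 12 libraries. With replicate 1 of gel at 250 nM left out of the correlation but kept in the centring, they were 0.920 to 0.960. These values are descriptions over libraries that share substrate, depth and library set. The mean score of the members, in SD of each gene's dose-centred values, lay above 0 in all 6 gel libraries, between 0.06 and 0.61, and below 0 in all 6 plastic libraries, between -0.51 and -0.15. Centring within each dose gives the means of the 2 substrates opposite signs by construction. How often other gene sets divide the libraries in this way was not tested. GCLC and TXNRD1 had negative fitted changes of gel over both doses, -0.28 and -0.03.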

How the data were processed

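Deposited gene tables of 12 libraries of polyadenylated RNA were used, 3 for each substrate and dose. Doses and substrates follow the sample titles; the protocols write µM instead of nM and describe the soft plates as coated with PDMS. Trimmomatic, STAR, RSEM, DESeq2 1.36.0 and GRCh38 are named, with no roles, in the submitters' processing notes; not given in the sources used here are the strand setting, annotation release and use of molecular identifiers. The authors deposited expected counts, RSEM's fractional estimates of reads per gene, per the file headers, and TPM scaled for effective length, per the file headers.

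Of 61541 identifiers the name table gave symbols for 61369 and GENCODE 29 for 159. Expected counts were rounded and tested in edgeR 4.0.16 (R 4.3.3): filterByExpr by group, TMM scaling, and a quasi-likelihood fit of 4 group means with 8 residual degrees of freedom over all 12 libraries, which share 1 estimate of the spread. P-values were adjusted by Benjamini-Hochberg over the 12329 tested genes within each comparison. CPM uses the effective library size. Depth limits low genes most: 0 counts allows up to 1.10 to 1.35 CPM per library at 250 nM and 0.408 to 0.510 CPM at 100 nM (3 counts, counting error only). Alternatives were RLE and upper-quartile scaling, no filter, DESeq2 1.42.0, limma-trend (limma 3.58.1) on log2(TPM + 1) and log2(TPM + 0.1), limma-voom with sample weights, a replicate block, compared groups alone, thinned 100 nM libraries, no mitochondrial or ribosomal DNA genes, leaving libraries out, and robust quasi-likelihood, chosen after seeing the data.

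The members and lists were chosen with earlier results of these data known. From the lists the text names genes called between substrates, in dose comparisons with any call the 2 of smallest adjusted p, and the 2 of highest mean TPM. The 5 genes of like pattern have the highest correlation of dose-centred log2 CPM (prior count 2) with the members' mean score among genes of at least 5 CPM. No pair of libraries held identical values. The test was checked on simulated data with the same spread for all genes. The check set a limit for fitted fold changes only, not for p-values.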

Additional observations from a re-analysis of the deposited data

How the results depend on the processing

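Of the members' log2 values recomputed under the alternatives, 1236 kept their direction and side of the threshold, 22 gained a call, 7 lost one and 59 changed sign. Depth limits HMOX1 and OSGIN1 (from 6 and 1 counts). For gel over both doses, the 0 called members became 1 (NQO1) with RLE scaling, with upper-quartile scaling, with no filter, without mitochondrial and ribosomal DNA genes, with the robust fit and without the 2 libraries low in ribosomal DNA, and 2 with DESeq2 and with limma-voom. At 250 nM the 0 became 1 (NQO1) with limma-voom. By dose on gel the 1 call became 3 with DESeq2, 2 with limma-voom and 0 on the compared groups alone. By dose on plastic the 0 became 1 with DESeq2 and 2 with limma-voom and without the 2 libraries low in ribosomal DNA. DESeq2 and limma-voom also called more of all tested genes than the reported fit in each of these comparisons. Leaving out 1 library gave 0 to 1 called members over both doses, by dose on gel and by dose on plastic. The cause was not tested.

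Signs changed for values that were not called in the reported fit. SLC7A11 at 100 nM, at -0.00, became 0.00 (0.00437, 0.00391 and 0.000382 with RLE, DESeq2 and no mitochondrial or ribosomal DNA genes), 0.25 with limma-voom, 0.17 and 0.23 on log2(TPM + 1) and log2(TPM + 0.1), and 0.052 with the replicate block. GCLC by dose became -0.014 with no filter, -0.51 and -0.56 on both TPM scales and -0.00141 without the 2 libraries low in ribosomal DNA on gel, and -0.049 and -0.056 on TPM on plastic; gel over plastic at 100 nM became 0.038 without those libraries. TXNRD1 gel over plastic became -0.00397 at 100 nM, 0.039 at 250 nM, 0.018 over both doses and 0.043 for the difference with limma-voom, and -0.014, 0.058, 0.022 and 0.072 without the 2 libraries low in ribosomal DNA. SRXN1's difference became -0.00483 with no filter, -0.20 with limma-voom and -0.16 without those libraries. NQO1 by dose on gel became 0.13 with limma-voom and 0.026 without them, and GCLM by dose on plastic 0.012 and 0.027.

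Leaving out 1 library moved SLC7A11 at 100 nM between -0.27 and 0.63 and by dose on plastic between -0.69 and 0.49, GCLC at 100 nM between -0.30 and 0.10 and by dose on gel between -0.13 and 0.28, and HMOX1 at 100 nM between -0.26 and 0.58. TXNRD1 moved between -0.013 and 0.14 at 100 nM, -0.23 and 0.067 at 250 nM, -0.096 and 0.059 over both doses and -0.28 and 0.016 for the difference. NQO1 moved between -0.22 and 0.050 by dose on gel and -0.016 and 0.26 for the difference, SRXN1's difference between -0.19 and 0.16, GCLM by dose on plastic between -0.098 and 0.030 and OSGIN1 there between -0.050 and 1.11.

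Over all genes the counts of calls ran from 0 to 231 for gel at 250 nM (1 reported), 3 to 447 at 100 nM (28), 37 to 801 over both doses (93), 0 to 129 for the difference (0), 525 to 2925 by dose on gel (1703) and 95 to 3173 on plastic (1050). These fits tested different numbers of genes. The 231 and the 129 came with no filter on low counts, over 28787 genes. The 0 at 250 nM came on the compared groups alone, over 9803 genes. Correlations of deviations from group means did not settle whether replicate numbers pair the libraries. Of 18 same-number pairs 8 had a correlation over 0.1 (range -0.24 to 0.32), and in 8 of the 18 the best correlation was with the same number. Between gel and plastic the same-number correlations were 0.107, 0.0568 and 0.035 at 250 nM and -0.205, 0.141 and -0.236 at 100 nM. With the replicate block the same number of members was called in each comparison, with 105 genes over both doses and 1665 by dose on gel. OSGIN1 gave no value where it failed a filter.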
